A study of Mus musculus with 30 samples.

Results

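Fc gamma receptors bind the constant part of IgG antibodies and link bound antibody to the behaviour of myeloid cells. Mouse macrophages can carry 3 activating receptors, encoded by Fcgr1, Fcgr3 and Fcgr4, and 1 inhibitory receptor, encoded by Fcgr2b. The activating receptors reach the surface and signal through the adaptor Fcer1g, the common gamma chain, whose cytoplasmic tail carries an ITAM, a motif with a pair of tyrosines that recruits the kinase Syk after phosphorylation. Fcgr2b carries its own ITIM, a motif with a lone tyrosine that recruits the lipid phosphatase encoded by Inpp5d and dampens the activating signal. Macrophages that take up antibody-coated cells are known to be held back by Fcgr2b. These 5 genes, of 14118 in the count matrix, were picked by name and found by Entrez identifier, and all 5 were present. They were described over 6 sorted cell populations, with the balance of activating and inhibitory transcripts in macrophages as the main question.

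The tumours were mammary adenocarcinomas of FVB/N-Tg(MMTVPyVT)634Mul/J mice, in which the polyoma middle T antigen is expressed under the mouse mammary tumour virus promoter. Each of 5 mice gave 1 tumour of 750 mm3, numbered 5, 6, 8, 10 and 11, and every population was sorted from every tumour, so each group holds 5 libraries. The 3 macrophage groups, all CD45+ F4/80+, were CD206hi (CD206+ with low MHC class II), CD206pos (CD206+ with high MHC class II) and CD206neg (CD206- with low MHC class II). Endothelial cells were CD45- CD31+, and the cancer-associated fibroblasts CAF1 and CAF2, both CD45- CD31- CD90+, were CD34- and CD34+. All animals carried the transgene and none was treated, so there is no tumour-free group. Values per library are given below in the tumour order 5, 6, 8, 10 and 11.

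Total counts ran from 6292411 to 11957076 per library, and 3 counts corresponded to 0.251 to 0.477 CPM (the standard depth-scaled count, relative to the library total). Adgre1, which encodes F4/80, stood at 292 to 1025 CPM in the 15 macrophage libraries and at 0.593 CPM or less in the other 15. Mrc1, which encodes CD206, averaged 989.7 ± 301 CPM in CD206hi, 1206 ± 537 CPM in CD206pos, against 67.8 ± 32.7 CPM in CD206neg (SD, n = 5 each). For CD206neg tumours 6 and 8 the column headings say MHC class II high and the sample labels say low. The labels were followed, but H2-Aa, an MHC class II chain, reached 7874 and 2778 CPM in these 2 libraries, against 20.2 to 391 CPM in the other CD206neg libraries. Calls of members and counts of list genes that are lost or move by over 1.5 times without them are given beside the results or after the gene lists.

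The genes lie in mm10 at chr1:170960558-170976071 (Fcgr2b, minus strand), chr1:171018926-171029761 (Fcgr4, plus strand), chr1:171051169-171065915 (Fcgr3, minus strand), chr1:171229572-171234349 (Fcer1g, minus strand) and chr3:96282909-96293969 (Fcgr1, minus strand). Their Entrez identifiers are 14130, 246256, 14131, 14127 and 14129 in that order. The stretches that define the opposite roles of Fcgr2b and Fcer1g are short coding segments, each read across an intron, with the tyrosine codons in capitals. The ITIM of Fcgr2b lies at chr1:170961056-170961198 and the ITAM of Fcer1g at chr1:171229889-171230072, both from the GENCODE transcripts of that build on the minus strand.
Fcgr2b ITIM with 15 bases on each side: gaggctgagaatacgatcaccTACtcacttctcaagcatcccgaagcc
Fcer1g ITAM: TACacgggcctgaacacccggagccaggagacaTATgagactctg

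The extracellular parts of Fcgr2b and Fcgr3 are close copies, which limits how well counts can tell them apart. Their coding sequences were identical at 86.7% of 782 aligned bases, against 64.4% to 68.6% for the other 5 receptor pairs. The longest identical run was 129 bases, at chr1:170966674-170968081 in Fcgr2b and chr1:171054167-171057792 in Fcgr3, each across an intron, and is shown because a short read from it fits both genes.
Run shared by Fcgr2b and Fcgr3: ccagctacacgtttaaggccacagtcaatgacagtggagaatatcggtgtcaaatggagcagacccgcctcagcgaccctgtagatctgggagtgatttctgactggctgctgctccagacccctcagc
Of the 50-base windows of the coding sequence, 17.1% in Fcgr2b and 22.1% in Fcgr3 were shared between the pair, and of the 100-base windows 4.78% and 6.27%. Fcgr1, Fcgr4 and Fcer1g shared no 50-base coding window with another gene. Windows that hold a gap were left out of the next search, so parts of the alignment that differ more are not shown. Among windows of 60 bases that aligned without a gap, the one with the most differences differed at 7 bases (capitals). It lies in exons at chr1:170968161-170968220 and chr1:171057872-171057931. A larger share of bases differed over the whole set of aligned bases, so this stretch is diverged only relative to the other gapless windows.
Fcgr2b, diverged stretch: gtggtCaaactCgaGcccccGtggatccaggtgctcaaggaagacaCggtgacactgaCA
Fcgr3, diverged stretch: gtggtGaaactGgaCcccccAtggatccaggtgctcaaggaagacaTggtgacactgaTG
As the sources used here give neither read length nor the strand setting of the counting, the split of reads between Fcgr2b and Fcgr3 is uncertain. Without strand, reads of Fcgr2b and of the annotated antisense gene Gm38204 over it cannot be told apart either.

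Among the activating receptors, Fcgr3 gave most of the transcripts, and none of the 3 differed between macrophage groups past the test. Fcgr3 encodes a low-affinity IgG receptor. It stood at 789, 821, 1056, 851 and 856 CPM in CD206hi, at 805, 667, 866, 691 and 905 CPM in CD206pos and at 611, 445, 683, 577 and 546 CPM in CD206neg. Every CD206hi library lay above every CD206neg library, and CD206pos overlapped with both. Across all 11052 genes tested, 6.66% had non-overlapping CPM between CD206hi and CD206neg. The log2 fold change of CD206hi over CD206neg was 0.48 ± 0.26 (SE, n = 5 per group), higher in 5 of 5 tumours, with an adjusted p of 0.306 in edgeR's quasi-likelihood test. On CPM scaled by TMM, the library scaling that the test uses, the same groups overlapped, at 584 to 1210 in CD206hi and 447 to 755 in CD206neg. For CD206pos over CD206neg the log2 fold change was 0.29 ± 0.26 (edgeR adjusted p = 0.493), and for CD206hi over CD206pos 0.19 ± 0.26 (0.931).

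Fcgr1 encodes the high-affinity IgG receptor. It stood at 160.0, 162, 168, 200.4 and 104 CPM in CD206hi, at 149, 127, 206, 144 and 132 CPM in CD206pos and at 137, 104, 196, 114 and 137 CPM in CD206neg. The 3 groups overlapped throughout. Its log2 fold changes were 0.02 ± 0.19 for CD206hi over CD206neg, -0.07 ± 0.19 for CD206pos over CD206neg and 0.09 ± 0.19 for CD206hi over CD206pos (edgeR adjusted p = 0.981, 0.842 and 0.953), and all 3 changed sign under at least 1 other setting.

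Fcgr4 encodes a receptor of intermediate affinity that binds a subset of IgG subclasses. It was the scarcest of the 5, at 21.5, 25.1, 14.4, 26.3 and 11.3 CPM in CD206hi, at 34.1, 35.1, 38.5, 43.9 and 22.1 CPM in CD206pos and at 20.9, 23.2, 39.9, 20.7 and 15.9 CPM in CD206neg. In every tumour the CD206hi library lay below the CD206pos library, while the ranges of these groups overlapped in CPM (0.769% of the genes tested had ranges that did not). On TMM-scaled CPM they did not overlap, at 14.6 to 23.1 in CD206hi and 27.3 to 41.3 in CD206pos, as for 1.06% of the genes tested. The log2 fold change of CD206hi over CD206pos was -0.82 ± 0.24, with an unadjusted p of 0.00301 and an adjusted p of 0.328 in edgeR's test (0.053 with tumour as a block). This comparison called 21 of 11052 genes, or 0.190% (0.00905% higher and 0.181% lower in CD206hi), and 0 of the 5 members in edgeR and in DESeq2, with 1 of the 5 and 801 of the 11052 under an unadjusted p of 0.05. Against CD206neg the log2 fold change was -0.50 ± 0.24 for CD206hi (edgeR adjusted p = 0.240) and 0.32 ± 0.24 for CD206pos (0.399). Without the CD206neg libraries of tumours 6 and 8 these were -0.14 (0.860) and 0.68 (0.100).

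The adaptor Fcer1g varied among tumours more than among groups. It stood at 761, 1276, 1647, 1429.6 and 809 CPM in CD206hi, at 809, 1459.5, 1210.4, 1197 and 976 CPM in CD206pos and at 784, 1049.5, 1519.9, 1244 and 1286 CPM in CD206neg. In all 3 groups the library of tumour 5 was the lowest. Its log2 fold changes were -0.21 ± 0.34 for CD206hi over CD206neg, -0.27 ± 0.34 for CD206pos over CD206neg and 0.06 ± 0.34 for CD206hi over CD206pos (edgeR adjusted p = 0.812, 0.641 and 0.979). The summed CPM of 8 macrophage markers was also lowest in tumour 5, at 18883 in CD206hi, 19343 in CD206pos and 17041 in CD206neg, with highest sums of 37339, 27260.0 and 36363 CPM. Single markers of that sum differed. C1qa was likewise lowest in tumour 5, at 3473, 3272 and 3486 CPM in the same groups. Mrc1 was instead highest in tumour 5 in CD206hi (1439 CPM) and CD206pos (2064 CPM), as was Csf1r in CD206pos (2186 CPM). Whether Fcer1g or the sum follows the macrophage content of the sorted cells was not tested. In bulk libraries, fewer cells of a type and less RNA per cell cannot be told apart.

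**Figure D1:**
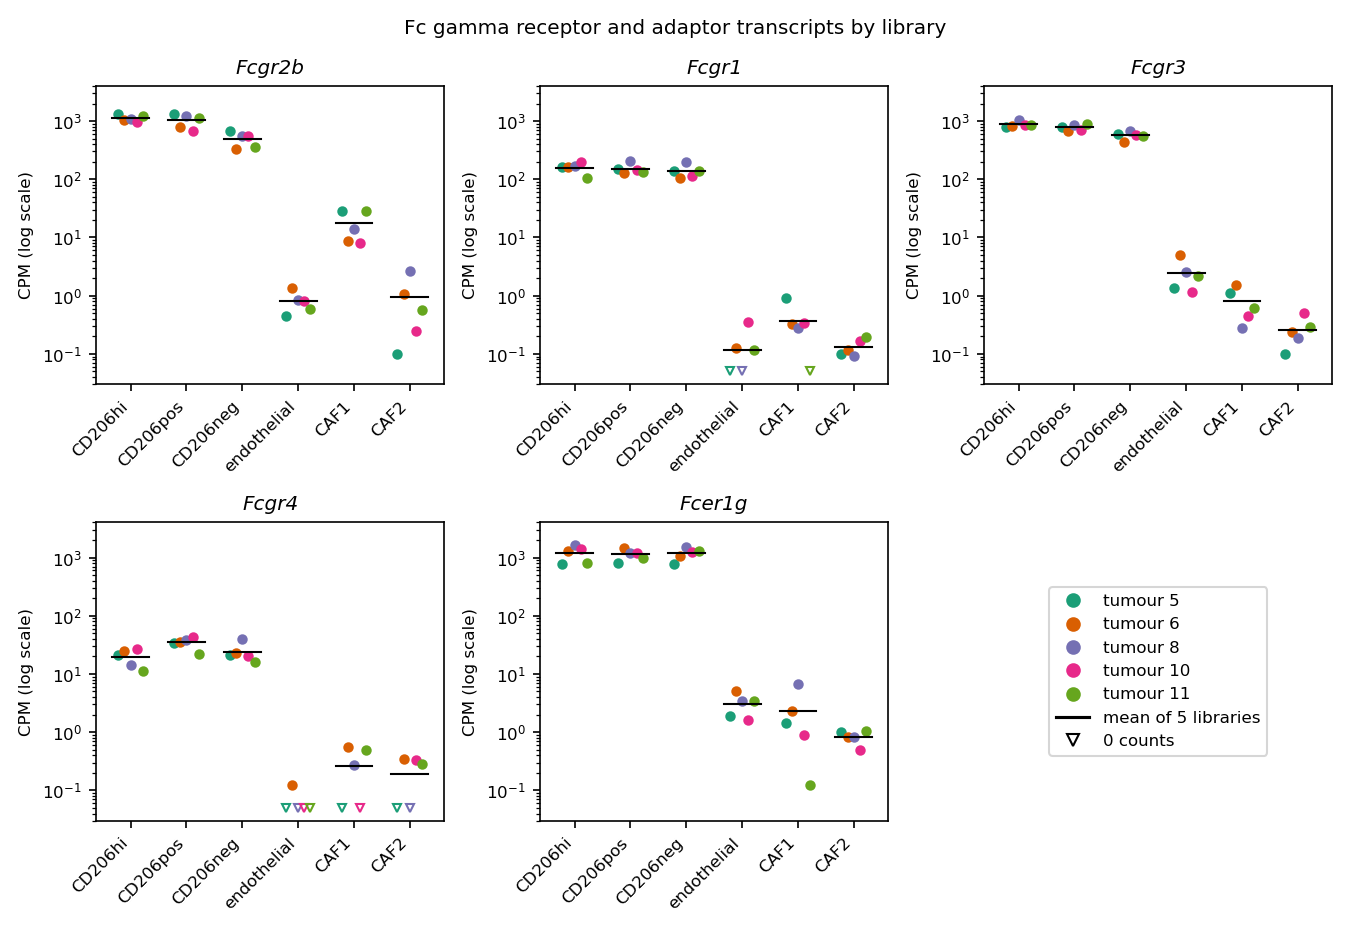
CPM on a log scale for the 5 genes in the 30 libraries, by sorted population; points are libraries coloured by tumour, bars are means of 5 libraries and open triangles mark libraries with 0 counts. The macrophage groups stand above the other 3 groups for every gene, and Fcgr2b alone reaches 8.10 to 28.5 CPM in CAF1.

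The inhibitory receptor Fcgr2b was the member that differed between macrophage groups. It stood at 1296, 1034, 1087, 975 and 1237 CPM in CD206hi, at 1336, 800.0, 1212, 678 and 1128 CPM in CD206pos and at 685, 329, 545, 553 and 359 CPM in CD206neg. All 5 CD206hi libraries lay above all 5 CD206neg libraries, while the lowest CD206pos library, that of tumour 10, lay just under the highest CD206neg library, that of tumour 5. In CPM, 7.30% of genes tested separated CD206pos from CD206neg in full. On TMM-scaled CPM neither CD206+ group overlapped with CD206neg, at 852 to 1747 in CD206hi, 614 to 1392 in CD206pos and 492 to 597 in CD206neg. Such separation was seen for 10.3% of genes between CD206hi and CD206neg and for 11.9% between CD206pos and CD206neg.

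Between CD206hi and CD206neg, Fcgr2b was 2.16-fold higher, or 1.11 ± 0.26 in log2 (SE, n = 5 per group), in 5 of 5 tumours, with an adjusted p of 0.00896 in edgeR's test. It was the 1 of 5 members that passed, where 10% of all genes did, 6.14% as higher and 3.90% as lower in CD206hi. Between CD206pos and CD206neg it was 1.90-fold higher, a log2 fold change of 0.92 ± 0.26, in 5 of 5 tumours (edgeR adjusted p = 0.0224), again as 1 of 5 members, where 14.7% of all genes passed, 8.85% as higher and 5.85% as lower in CD206pos. Between CD206hi and CD206pos its log2 fold change was 0.19 ± 0.26 (0.931). DESeq2 gave adjusted p values of 7.81e-05 for CD206hi and 0.00102 for CD206pos against CD206neg. Both calls were lost when all 30 libraries shared 1 fit (1.12 and 0.93 on the log2 scale, adjusted p = 0.12 and 0.155). They were also lost without the 2 CD206neg libraries of high H2-Aa, at a log2 fold change of 1.04 for CD206hi (edgeR adjusted p = 0.0892) and of 0.85 for CD206pos (0.123). The CD206hi call was also lost without tumour 11 in every group (log2 0.86, adjusted p = 0.0659). The CD206pos call was lost without the CD206pos library of tumour 11 (0.0736), without the CD206neg library of tumour 6 (0.054), 8 (0.0523) or 11 (0.0584), and without tumour 5 (0.0839), 6 (0.0725), 8 (0.0543) or 11 (0.0932) in every group.

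**Figure D2:**
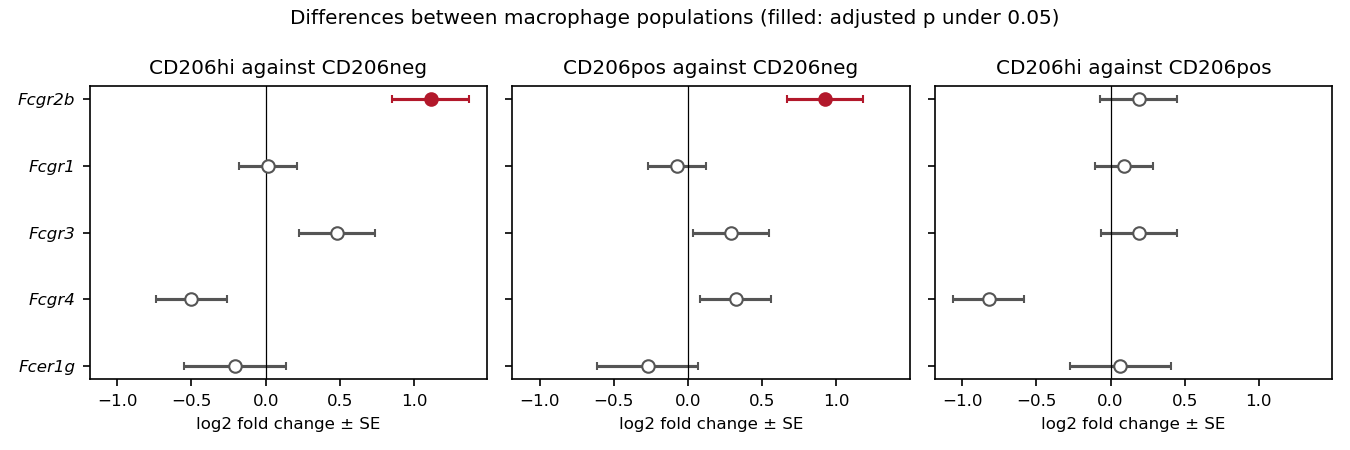
Log2 fold change with its SE for the 5 genes in 3 comparisons of macrophage groups (n = 5 libraries per group), with filled points for an adjusted p under 0.05 in edgeR's test. Fcgr2b is filled against CD206neg, at 1.11 for CD206hi and 0.92 for CD206pos, and no other point is.

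Other transcripts moved with these groups. The summed CPM of 8 genes induced by tissue dissociation ran from 7779 to 23415 in CD206hi, 5620 to 17409 in CD206pos and 6309 to 9750 in CD206neg, with 0 of the 8 past the test in the macrophage comparisons. With tumour as a block, Fos and Egr1 passed for CD206hi over CD206neg (unblocked log2 1.08 and 1.17, blocked edgeR adjusted p = 0.0236 and 0.00542, 5 of 5 tumours), and Egr1 for CD206pos over CD206neg (0.0373). The sum of 6 monocyte genes ran from 76.2 to 114 CPM in CD206hi, 197 to 340 CPM in CD206pos, against 15.8 to 55.6 CPM in CD206neg. The sum of 5 dendritic cell genes ran from 6.35 to 261 CPM in CD206hi, 32.7 to 233 CPM in CD206pos, against 10.4 to 21.5 CPM in CD206neg. The B cell markers Cd22 and Cd79b, of interest because B cells use Fcgr2b as their Fc receptor, did not exceed 22.2 CPM in any macrophage library. Cd79b averaged 9.28 ± 3.97 CPM in CD206hi, 12.9 ± 5.40 CPM in CD206pos and 3.82 ± 0.847 CPM in CD206neg, and passed against CD206neg for CD206pos (log2 1.56 ± 0.35, edgeR adjusted p = 0.00627) and, with tumour as a block, for CD206hi (0.0109). Cd22 averaged 11.2, 12.3 and 12.3 CPM in the same groups. The sum of 5 mast cell and basophil genes was 159 CPM in the CD206neg library of tumour 5. It was 6.51 CPM or less in every other macrophage library. That CD206neg library also had the highest Fcgr2b level of its group, 685 CPM. The part of all these transcripts in the Fcgr2b difference was not tested.

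To compare levels between genes, CPM were divided by exon length, taken from GENCODE exons within the RefSeq span of each gene (1547 bases for Fcgr2b, 1629 for Fcgr3, 2589 for Fcgr1, 1250 for Fcgr4 and 732 for Fcer1g). Per kilobase, the order was Fcer1g, Fcgr2b, Fcgr3, Fcgr1 and Fcgr4 in all 5 CD206hi libraries, in all 5 CD206pos libraries and in the CD206neg libraries of tumours 5 and 10. In the CD206neg libraries of tumours 6, 8 and 11 Fcgr3 stood above Fcgr2b. Fcgr2b averaged 728 ± 88.0 CPM per kilobase in CD206hi, 666 ± 181 in CD206pos and 319 ± 95.9 in CD206neg (SD, n = 5). Fcgr3 averaged 537 ± 64.4, 483 ± 64.5 and 351 ± 53.8 CPM per kilobase in the same groups, so the 2 neighbours differed by less than their spread in CD206neg. Fcgr1 averaged 53.2 to 61.3 and Fcgr4 15.8 to 27.8 CPM per kilobase over the 3 groups.

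The balance of activating to inhibitory receptor transcripts, the sum of Fcgr1, Fcgr3 and Fcgr4 over Fcgr2b per exon length, was lower in CD206hi than in CD206neg in each tumour. On the log2 scale it was -0.57, -0.19, 0.05, -0.02 and -0.48 in CD206hi, -0.58, -0.09, -0.29, 0.23 and -0.22 in CD206pos and 0.01, 0.64, 0.58, 0.21 and 0.79 in CD206neg. The median ratio was 0.878 in CD206hi, 0.856 in CD206pos and 1.5 in CD206neg. Within tumours, CD206hi minus CD206neg averaged -0.69 ± 0.39 (SD, n = 5 tumours, lower in 5 of 5) and CD206pos minus CD206neg -0.63 ± 0.40 (lower in 4 of 5). CD206hi minus CD206pos averaged -0.05 ± 0.24 (lower in 3 of 5). The ranges of all 3 groups overlapped, and the balance was given no test. As a share of the 4 receptors' transcripts, Fcgr2b made up a median of 53.2% in CD206hi, 53.9% in CD206pos and 40.0% in CD206neg.

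The balance was set by Fcgr2b and Fcgr3. Fcgr3 made up a median of 86.0% of activating transcripts in CD206hi, 84.1% in CD206pos and 83.6% in CD206neg. Fcgr1 made up 10.6%, 10.1% and 12.1%, and Fcgr4 3.06%, 4.80% and 3.99%. Since the counts of Fcgr2b and Fcgr3 may share reads, the balance carries the same uncertainty. Its level also depends on the gene length used, as Fcgr2b has a longer exon model in GENCODE (3810 bases) than within its RefSeq span: with whole GENCODE lengths the median log2 balance was 1.11 in CD206hi, 1.08 in CD206pos and 1.88 in CD206neg. Whether a balance lies above or below 0 thus depends on the lengths, whereas the length of Fcgr2b cancels in a difference between groups. Without the CD206neg libraries of tumours 6 and 8, the CD206neg median fell to 0.21 on the log2 scale, against 0.58 with all 5. Fcer1g exceeded the sum of the activating receptors per length, by a median of 2.97 times in CD206hi, 2.58 times in CD206pos and 4.10 times in CD206neg. Fcer1g also serves other receptors, several of which are described further on.

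**Figure D3:**
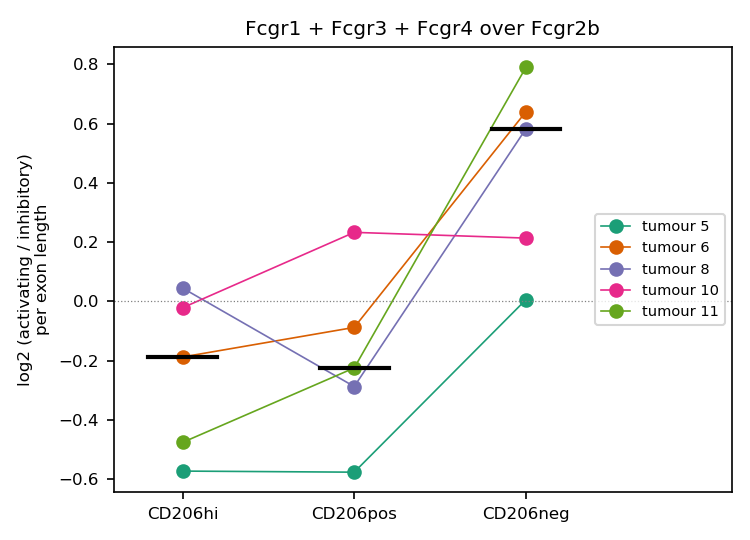
Log2 ratio of activating (Fcgr1, Fcgr3 and Fcgr4) to inhibitory (Fcgr2b) transcripts per exon length in the 3 macrophage groups, with lines joining libraries of a tumour and bars at the median of 5 libraries. CD206neg lies highest in tumours 5, 6, 8 and 11, and in tumour 10 it lies just under CD206pos (0.21 against 0.23).

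Genes that transmit or oppose the receptor signal went both ways between CD206hi and CD206neg. Blocking by tumour raised the calls over all genes from 1110 to 1791 in this comparison. For CD206pos against CD206neg it raised them from 1625 to 2800, and for CD206hi against CD206pos from 21 to 97. Of 23 activating signalling genes 1 was higher and 5 were lower in CD206hi (1 and 8 when blocked by tumour), with a median log2 fold change of -0.40, against 0.02 over all genes tested. Malt1, an adaptor of the pathway to NF-kappa-B, stood at 22.8 ± 13.8 CPM in CD206hi, against 86.4 ± 45.9 CPM in CD206neg, a log2 fold change of -2.10 ± 0.39 (edgeR adjusted p = 0.00169). The kinase Src had a log2 fold change of -2.11 ± 0.41 (0.00237), at 3.69 ± 1.85 CPM in CD206hi, against 13.5 ± 6.78 CPM in CD206neg, and its relative Fyn was higher by 0.87 ± 0.21 (0.0103). Syk itself had a log2 fold change of -0.02 ± 0.21 (0.981). Of 10 inhibitory signalling genes 1 was higher and 1 lower (1 and 2 when blocked by tumour), with a median of -0.34. Dok2, an adaptor that restrains kinase signalling, stood at 76.6 ± 21.2 CPM in CD206hi, against 8.52 ± 4.28 CPM in CD206neg, 8.67-fold higher (log2 3.12 ± 0.34, edgeR adjusted p = 2.38e-05). Sh2d1b1, an SH2 adaptor, had a log2 fold change of -2.63 ± 0.64 (0.0117). Inpp5d, the phosphatase that the ITIM of Fcgr2b recruits, had a log2 fold change of -0.36 ± 0.23 (0.419), so it did not pass where its receptor did.

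Receptors that share or mirror the Fcer1g and Fcgr2b motifs included calls in CD206hi as well. A list of activating myeloid receptors, named for Fcer1g, also holds Clec5a, Pilrb1 and Cd300lb, which are known to pair with Tyrobp. Of its 9 tested genes, 2 were higher than in CD206neg and 0 lower (blocked by tumour, 4 and 0). The median of the 9 was 0.69 on the log2 scale. The 2 were Cd300ld, at 188 ± 59.5 CPM in CD206hi, against 56.6 ± 16.0 CPM in CD206neg (log2 1.59 ± 0.23, edgeR adjusted p = 0.000257), and Pira2, a paired immunoglobulin-like receptor (1.95 ± 0.38, 0.00243). Of 15 ITIM receptors of myeloid cells 3 were higher and 3 lower, with a median of -0.16. Pirb, the inhibitory partner of the Pira family, stood at 195 ± 61 CPM in CD206hi, against 42.1 ± 17.5 CPM in CD206neg (log2 2.15 ± 0.33, edgeR adjusted p = 0.000366). Clec4a3, an inhibitory lectin, had a log2 fold change of 1.35 ± 0.37 (0.0259), Lair1, a collagen receptor, -1.01 ± 0.31 (0.0428) and Siglece, a sialic acid receptor, -1.01 ± 0.26 (0.0164). Pira, Pirb, Clec4 and Cd300 genes have close paralogs, so reads may be shared among them.

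Among other Fc receptors, Fcgrt differed most. It encodes the neonatal Fc receptor, which rescues IgG from degradation inside cells. Fcgrt stood at 1830.1 ± 1163 CPM in CD206hi, against 66.8 ± 7.23 CPM in CD206neg, 26.1-fold higher in CD206hi (log2 4.70 ± 0.57, edgeR adjusted p = 4.28e-05, 5 of 5 tumours). It stood at 1295 ± 432 CPM in CD206pos, a log2 fold change of 4.07 ± 0.55 over CD206neg (0.000107). It was the 1 of 5 tested genes of its list that passed in each of these comparisons. When blocked by tumour, Fcrls, an Fc receptor-like gene, also passed for CD206hi (unblocked log2 0.95, blocked edgeR adjusted p = 0.0301). Of 17 genes of the phagocytic cup and the oxidase, 0 were higher and 2 lower in CD206hi than in CD206neg, with a median of -0.41. Cybb, the catalytic subunit of the phagocyte oxidase, had a log2 fold change of -1.29 ± 0.26 (edgeR adjusted p = 0.00291) and Coro1a, an actin regulator, -1.15 ± 0.32 (0.025). Of 9 other ITAM adaptors and partners of Tyrobp, 0 were higher and 2 lower (0 and 4 with tumour as a block), both under 10 CPM. Tyrobp, the other main ITAM adaptor of macrophages, had a log2 fold change of -0.87 ± 0.37 (0.175) and passed when blocked by tumour (0.0247, lower in 5 of 5 tumours). For CD206pos over CD206neg it was -0.88 ± 0.37 (0.121, and 0.0119 when blocked). Immunoglobulin transcripts, the ligand side of the pathway, are not analysed here: 0 of the 11 listed were found in the matrix by symbol.

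Between CD206pos and CD206neg the same lists gave 3 higher and 5 lower of 23 activating signalling genes, with a median log2 fold change of -0.23, against 0.02 over all genes. Vav3, a guanine nucleotide exchange factor, was higher by 1.14 ± 0.28 (edgeR adjusted p = 0.0102) and Fyn by 1.14 ± 0.21 (0.00122). Src had a log2 fold change of -1.56 ± 0.40 (0.0132). Of the inhibitory signalling genes 1 of 10 was higher and 1 lower (1 and 4 with tumour as a block), Dok2 at 3.81 ± 0.35 (6.8e-06) and Dok3 at -0.78 ± 0.20 (0.0123). Of the activating myeloid receptors, 6 of 9 were higher in CD206pos and 0 lower (7 and 1 when blocked by tumour), with a median of 1.20. Among them Clec4b1, a lectin, stood at 66.3 ± 50.9 CPM in CD206pos, against 2.08 ± 1.35 CPM in CD206neg (log2 4.87 ± 0.72, edgeR adjusted p = 0.000204), and Cd300ld was higher by 2.23 ± 0.24 (2.39e-05). Without the CD206neg libraries of tumours 6 and 8, 3 of these 9 passed.

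Of the ITIM receptors 4 of 15 were higher and 3 lower in CD206pos than in CD206neg, with a median of -0.19. Pirb was higher by 2.05 ± 0.33 (edgeR adjusted p = 0.000465) and Clec4a3 by 1.89 ± 0.38 (0.00256), while Lair1 had a log2 fold change of -1.16 ± 0.31 (0.0161) and Siglece of -0.89 ± 0.26 (0.0271). Of 17 phagocytic cup and oxidase genes 0 were higher and 2 lower (0 and 4 with tumour as a block), Coro1a at -1.36 ± 0.32 (0.00768) and Cybb at -0.92 ± 0.25 (0.0204), with a median of -0.41. Hcst, an adaptor that signals through phosphoinositide kinase, was the 1 of 9 other adaptors and Tyrobp partners that was higher (0.85 ± 0.27, 0.04), with 0 lower. Its call was lost in 13 of 23 alternatives, and when blocked by tumour 2 genes of that list were higher and 2 lower. Between CD206hi and CD206pos 2 genes of the lists passed, both lower in CD206hi. They were the kinase Fgr (log2 -1.18 ± 0.22, edgeR adjusted p = 0.036) and Clec4b1 (-3.35 ± 0.65, 0.0376), and the calls were lost in 12 and 13 of 22 alternatives. When blocked by tumour, 2 activating signalling genes, 2 activating myeloid receptors, 1 other adaptor or partner and 1 ITIM receptor were lower in CD206hi, and none of the lists had a higher gene. Over all genes, 97 passed with that block, against 21 without it.

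Several counts were smaller without the CD206neg libraries of tumours 6 and 8. For CD206hi against CD206neg, 0 activating signalling genes were then higher and 4 lower, 1 phagocytic gene was lower, and 0 other adaptors, 0 inhibitory signalling genes and 0 ITIM receptors were lower. The calls of Fyn, Sh2d1b1, Coro1a, Siglece and Lair1 were lost. For CD206pos against CD206neg, 2 activating signalling genes were higher and 2 lower, 1 phagocytic gene was lower, and 0 inhibitory signalling genes and 0 ITIM receptors were lower. The calls of Dok3, Cybb, Lair1 and Siglece were lost. The 3 macrophage comparisons share groups of libraries, so their lists of calls are not separate evidence. Direction held under the alternatives for each list gene reported above as past the unblocked test. The calls of Fcgrt, Dok2, Pirb and Cd300ld against CD206neg held in all 23 alternatives for both CD206+ groups, whereas the call of Lair1 between CD206hi and CD206neg was lost in 14 of 23, that of Coro1a in 10 and that of Clec4a3 in 9.

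Genes with profiles most like each member over the 15 macrophage libraries were sought among 6852 genes of at least 10 CPM, as Pearson's r of log2 CPM. The libraries share 5 tumours and 3 gates, TMM factors ran from 0.648 to 1.40, and r is a description without a test. Fcgr2b was most like Dstn, an actin-severing protein (r = 0.96 with TMM scaling and 0.96 without), and Rab1a, a GTPase of transport from the endoplasmic reticulum (0.93 and 0.95). Both were among the 3 highest on both scales. Fcer1g was most like Gng5, a G protein subunit (0.96 and 0.90), Ms4a7 (0.94 and 0.82) and Arhgdib (0.94 and 0.88). Fcgr3 was most like Laptm4a (0.93 and 0.88), the immediate early gene Fos, which is also in the dissociation list (0.91 and 0.85) and Calm2, a calmodulin gene (0.90 and 0.78). Fcgr1 was most like BC004004 (0.86 and 0.92), Rgs10 (0.80 and 0.58) and Fcer1g itself (0.79 and 0.40). All were picked with TMM scaling, and some ranked far lower without it. For Fcgr1, Rgs10 then ranked 1771 and Fcer1g 4442 of 6852 genes, and for Fcgr3, Fos ranked 38 and Calm2 147. These likenesses thus depend on the scaling. Between Fcgr2b and Fcgr3, whose reads may be shared, r was 0.73 with scaling and 0.89 without.

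For Fcgr4 the nearest genes with TMM scaling were H2-Eb1 (r = 0.92), H2-Ea (0.91) and H2-Aa (0.90), 3 MHC class II genes, which belong to the gate that separates CD206pos from the other groups. Without scaling these values were 0.73, 0.66 and 0.59, and other genes ranked above them, so the likeness depends on the scaling. H2-Aa stood at 13.8, 92.6, 17.2, 84.0 and 90.0 CPM in CD206hi, at 533, 6590, 2058, 5296 and 5461 CPM in CD206pos and at 20.2, 7874, 2778, 391 and 335 CPM in CD206neg. The CD206neg library of tumour 8 had the highest Fcgr4 level of its group, 39.9 CPM, and the second highest H2-Aa level. That of tumour 6, with the highest H2-Aa level, had 23.2 CPM of Fcgr4, and 35.8 once scaled by TMM. Against Fcgr2b, r of Fcgr4 was -0.29 with scaling and -0.01 without, against Fcgr3 -0.15 and -0.08, and against Fcgr1 0.25 and 0.46.

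**Figure D4:**
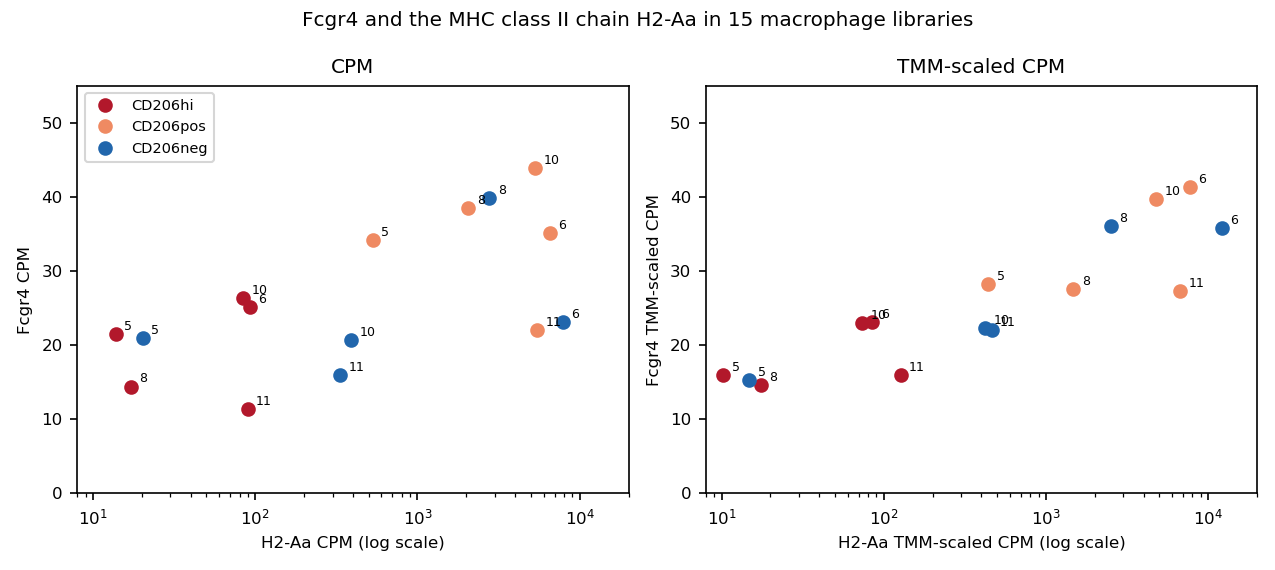
Fcgr4 on a linear axis against H2-Aa on a log axis in the 15 macrophage libraries, in CPM (left) and TMM-scaled CPM (right), with the tumour number beside each point. CD206pos lies to the right of CD206hi in both panels and above it on the right, while on the left its tumour 11 (22.1 CPM) lies below CD206hi tumours 6 and 10. Among CD206neg, tumour 8 lies within the H2-Aa range of CD206pos and tumour 6 above it in both panels. On the right, CD206neg tumour 11 (463) also lies within that range, just above its lowest library (441).

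Outside macrophages the members were rare, with 1 exception. The lowest macrophage library exceeded the highest of the 15 endothelial and fibroblast libraries 114-fold for Fcgr1, 113-fold for Fcer1g, 89.1-fold for Fcgr3, 20.8-fold for Fcgr4 and 11.6-fold for Fcgr2b. In edgeR's test all 5 were higher in macrophages, as were 30.4% of the 13610 genes tested (38.8% were lower and 69.3% differed in either direction), but the members passed the filter on low counts through the macrophage libraries and had to differ, so nothing is read from that count. The median log2 fold change of all genes in this comparison was -0.13. Of the other lists, 21 of 23 activating signalling genes, 16 of 17 phagocytic cup and oxidase genes, 9 of 9 activating myeloid receptors and 15 of 15 ITIM receptors were higher in macrophages. Between CAF1 and CAF2, 0 of these 9 and 3 of these 15 passed the filter, so most entered through other libraries, and nothing is read from their counts. Fyn, in contrast, stood at 24.8 ± 11.5 CPM in macrophages, against 208 ± 132 CPM in the other libraries (log2 -2.44 ± 0.12, n = 15 libraries from 5 tumours on each side).

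The exception was Fcgr2b in CAF1. It stood at 28.0, 8.73, 14.1, 8.10 and 28.5 CPM in CAF1 and at 0.0999, 1.05, 2.69, 0.251 and 0.575 CPM in CAF2. These values rest on 72 to 278 counts per CAF1 library and 1 to 29 counts per CAF2 library, and every CAF1 library lay above every CAF2 library, as for 12.3% of the 12149 genes tested. Fcgr2b was 20.6-fold higher in CAF1, or 4.36 ± 0.72 in log2 (SE, n = 5 per group), in 5 of 5 tumours, with an adjusted p of 0.000971 in edgeR's test (19.5% of genes passed, 10.9% as higher and 8.59% as lower). The call held in all 22 alternatives, with log2 fold changes of 3.70 to 5.42. It remained far below the macrophage groups, where the lowest library held 329 CPM.

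The other 4 members did not pass the filter on low counts in the comparison of CAF1 and CAF2. Fcgr3 stood at 0.276 to 1.53 CPM in CAF1, against 0.0999 to 0.502 CPM in CAF2, and Fcer1g at 0.122 to 6.73 CPM and 0.502 to 1.05 CPM. Fcgr1 did not exceed 0.907 CPM and Fcgr4 did not exceed 0.545 CPM in either. Fcgr2b counts exceeded Fcgr3 counts 25.3, 5.71, 51, 18 and 46.6 times in CAF1, whereas the same ratio ran from 1.03 to 1.64 in CD206hi, 0.981 to 1.66 in CD206pos and 0.657 to 1.12 in CD206neg. With all 30 libraries in the fit, 2 members were called between CAF1 and CAF2, Fcgr2b and Fcgr3, where 2233 of 13610 genes passed. Fcgr3 entered that test through libraries of other groups, at 1 to 14 counts per CAF library, so nothing is read from its call.

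**Figure D5:**
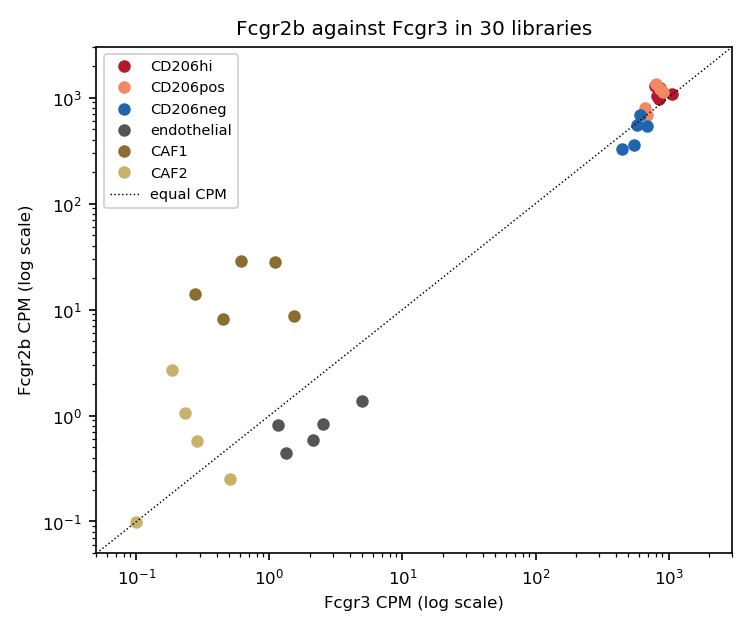
Fcgr2b against Fcgr3 CPM, both on log axes, in the 30 libraries coloured by population, with a dotted line at equal CPM. Macrophage libraries lie close to the line at the upper right, the 5 CAF1 libraries lie 5.71 to 51 times above it, and the 5 endothelial libraries lie below it.

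Markers of other cells also differed between these gates. The summed CPM of 8 macrophage markers ran from 20.6 to 41.8 in CAF1 and 13.1 to 22.3 in CAF2, against at least 17041 in macrophage libraries, and Adgre1 did not exceed 0.545 CPM in CAF1. Among the B cell markers in the matrix (3 of 7), Cd22 had 0 counts in every CAF1 and CAF2 library, Cd79b stood at 119 CPM in the CAF1 library of tumour 8 and at 3.82 CPM or less in the other CAF1 libraries, and Ebf1, also expressed by stromal cells, at 50.9 to 126 CPM in CAF1, against 99.5 to 179 CPM in CAF2. A list of 7 pericyte genes, chosen after the data were seen, summed to 2595, 1899, 2522, 745 and 675 CPM in CAF1, against 151 to 260 CPM in CAF2, with all 7 higher in CAF1. Fcgr2b in the same CAF1 libraries stood at 28.0, 8.73, 14.1, 8.10 and 28.5 CPM. Epithelial genes summed to 245 to 4706 CPM in CAF1, against 2.30 to 407 CPM in CAF2. In the endothelial libraries the pericyte genes summed to 931, 104, 1941, 301 and 281 CPM. Epithelial genes summed to 204 to 2301 CPM in these endothelial libraries, and Fcgr2b stood at 0.443 to 1.37 CPM. The part of pericytes and epithelial cells in the CAF1 value of Fcgr2b was not tested. Of the signalling genes, Syk stood at 0.816 ± 0.363 CPM in CAF1, against 15.9 ± 10.5 CPM in CAF2 (log2 -4.13 ± 0.46, edgeR adjusted p = 6.75e-05) and Lyn, a kinase that phosphorylates ITIMs, at 22.2 ± 12.9 and 7.78 ± 2.29 CPM (1.5 ± 0.29, 0.00295). Inpp5d did not pass the filter in this comparison.

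Endothelial libraries held little of any member. Fcgr3 stood at 1.33, 4.99, 2.52, 1.15 and 2.13 CPM there (10 to 40 counts), and averaged 2.43 ± 1.54 CPM in endothelial cells (SD, n = 5) and 0.528 ± 0.454 CPM in the 10 CAF libraries. Its log2 fold change over the mean of the CAF groups was 1.96 ± 0.37 (edgeR adjusted p = 7.58e-05, 5 of 5 tumours), where 45.2% of genes passed and 23.0% as higher. The macrophage marker sum ran from 14.3 to 66.3 CPM in endothelial libraries, highest in tumour 6, which also had the highest Fcgr3, and its part in that level was not tested. Fcgr2b was lower in endothelial cells than in CAFs by a log2 fold change of -2.78 ± 0.52 (5.62e-05; 22.1% of genes were lower), at 0.443, 1.37, 0.840, 0.808 and 0.593 CPM, a range within that of CAF2. Fcer1g stood at 1.62 to 5.12 CPM in endothelial cells, with a log2 fold change of 0.76 ± 0.43 over CAFs (0.159), and passed without the CAF1 library of tumour 8 (1.22, 0.00998). Fcgr1 had at most 3 counts in any endothelial library and Fcgr4 had 1 count in all 5 together, so no fold is given for them. Of the 5 members 3 passed in this comparison, where 45.2% of all genes did, and Fcgr4 was among them at this floor. Fcgr4 passed the filter on low counts only through the macrophage libraries, so nothing is read from its call.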

How the data were processed

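RNA was measured in 30 libraries. Per the labels' protocols, cDNA came from a SMARTseq v4 kit and libraries from an Ovation Ultralow V2 kit. The submitters' processing notes name the build mm10, HISAT2 2.0.4, Trimmomatic 0.36, DESeq2 1.26 and SAMtools 1.3.1. How reads were counted (tool, strand, annotation) is not given in the sources used here. Raw counts by Entrez identifier, as deposited, were tested. A second deposited table holds a signal, the counts over 1 factor per library, and served as an alternative. A symbol was matched for 14104 of 14118 genes, and genes with fewer than 72 counts in total are not in the matrix.

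Groups follow the labels. Tests used R 4.3.3 and edgeR 4.0.16: filterByExpr, TMM scaling, quasi-likelihood F tests and a threshold of 0.05 on p adjusted by Benjamini-Hochberg across every tested gene. Fits held 15 macrophage libraries (11052 genes), 10 CAF libraries (12149) or 30 libraries (13610, for comparisons across lineages), with no block. The SE is the log2 fold change divided by the square root of F. SD are over 5 tumours, and CPM are unscaled unless TMM is named. Tumour numbers pair libraries, since all 6 populations of a tumour come from 1 animal. Deviations from group means correlated by 0.111 to 0.648 between macrophage libraries of a tumour, 0.0205 to 0.381 between fibroblast and 0.0213 to 0.574 over all libraries. Values with tumour as a block are given where they change the call of a member or of a gene described, or a list count by over 1.5 times, and for Fcgr4. Sequences, their identity and shared windows come from GENCODE vM21 on the reference build. Variants of the FVB/N animals were not looked for. The fits were tested on simulated data. Alternatives are described with their effects in the closing section.

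The members and the gene lists were chosen with earlier results of these data known. Genes named from the lists are up to 2 per list and direction with the largest called change and at least 10 CPM in the higher group. The values given beyond that rule, for Syk, Inpp5d, Tyrobp, Lyn, Fyn outside macrophages, H2-Aa and cell type markers, were picked for their role or after their values were seen. A few genes that the rule takes are not reported here. Counting error alone puts the upper limit for a gene with 0 counts at 3 counts, and replicate error comes from the 5 tumours.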

Additional observations from a re-analysis of the deposited data

Results flagged for a closer look

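In 33 groups of 5 libraries (each member in each population, and the balance in each macrophage group), 3 values stood apart from the other libraries of their group by more than 0.710 of the group's range, and chance alone flags about 1 in 20 such groups. Fcgr1 in CD206pos reached 206 CPM in tumour 8, against 149 CPM in the next library. Scaled by TMM, with a factor of 1.40 for that library, its value was 148 and within the 123 to 162 of its group. Fcgr3 in CD206hi reached 1056 CPM in tumour 8, against 856 CPM in the next library. Scaled by TMM, the highest library of that group was tumour 11, at 1210. Fcgr4 in endothelial cells had 1 count in tumour 6, or 0.125 CPM, against 0 in the other libraries.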

How the results depend on the processing

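Fits were repeated with RLE factors, tumour as a block, DESeq2 1.42.0, a filter of 50 counts in 5 libraries or none, limma 3.58.1 on the log2 of the authors' normalised values plus 1, all 30 libraries, without the CD206neg libraries of tumours 6 and 8, and without each library and each tumour. The replicate block changed no call of a member: Fcgr2b had adjusted p values of 0.0023 for CD206hi and 0.00704 for CD206pos against CD206neg, and 0.00343 for CAF1 against CAF2. Members called fell to 0 for CD206hi and for CD206pos against CD206neg with all libraries in the fit (Fcgr2b log2 1.12 and 0.93, adjusted p = 0.12 and 0.155) and without the CD206neg libraries of tumours 6 and 8. Under these 2 settings, all genes called for CD206hi against CD206neg went from 1110 to 1231 and 545. For CD206pos against CD206neg they went from 1625 to 1967 and 930. Members called were 2 for CAF1 against CAF2 with all libraries, where 2233 genes passed. In that fit 5 members could be tested, those other than Fcgr2b through libraries of other groups, so nothing is read from the call of Fcgr3. Leaving out 1 library or tumour gave 0 to 1 members for CD206hi and for CD206pos against CD206neg, 0 for CD206hi against CD206pos, 1 for CAF1 against CAF2, 2 to 4 for endothelial cells against CAFs and 5 for macrophages against the rest. Genes called among all tested then ran from 535 to 1164 for CD206hi and from 765 to 2070 for CD206pos against CD206neg. They ran from 0 to 48 for CD206hi against CD206pos and from 1663 to 2390 for CAF1 against CAF2. For endothelial cells against CAFs they ran from 4674 to 6250, and for macrophages against the rest from 8698 to 9562.

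The median log2 balance was -3.20, -2.82 and -1.86 in CD206hi, CD206pos and CD206neg without Fcgr3, 1.11, 1.08 and 1.88 with whole GENCODE lengths, and 0.23, 0.20 and 1.00 with coding lengths (both lengths added after the data were seen). It was 0.21 in CD206neg without tumours 6 and 8. Leaving out 1 library moved it between -0.33 and -0.10 in CD206hi, -0.26 and -0.16 in CD206pos, and 0.40 and 0.61 in CD206neg. Fold changes near 0 changed sign. For CD206hi against CD206neg Fcgr1 was -0.0064 with DESeq2, -0.0071 with RLE and -0.014 with no filter, and -0.12 to 0.11 with a library or tumour left out. For CD206pos against CD206neg it was 0.011 without tumours 6 and 8, and -0.20 to 0.00081 with a library or tumour left out. For CD206hi against CD206pos, leaving out a library or tumour gave -0.0062 to 0.16 for Fcgr1, -0.021 to 0.34 for Fcgr2b and -0.18 to 0.28 for Fcer1g. The causes were not tested. A p above the threshold with 5 libraries per group does not show equal levels, and levels near 3 counts limit Fcgr1 and Fcgr4 outside macrophages.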
